A study of Saccharomyces cerevisiae with 8 samples.

Results

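Pho92 binding with and without IME4 was followed in 4 CRAC libraries, 2 from cells with IME4 and 2 from an ime4 mutant, out of 8 libraries in the series. The unit is a region, formed by merging peaks of these 4 libraries that touched on the same strand. All regions outside contig NCSL01000092.1 were kept, which gave 105002 of 105079 regions, whatever their strength or direction of change. The value of a region in a library is the summed normalized score of its peaks, and it is 0 where no peak is listed.

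CRAC crosslinks a tagged protein to its RNA with ultraviolet light, purifies the protein under denaturing conditions and sequences the RNA that stays attached. All cultures were diploid SK1 budding yeast in which copper switches on IME1, the gene that starts meiosis (pCUP-IME1). They received 50 μM copper sulfate and were harvested at 5 h in sporulation medium, which was 3 h after IME1 induction. The Pho92-HTP group carries the tagged protein and IME4, and the Pho92-HTP ime4 mutant group differs from it in the genotype label alone. Both groups were irradiated at 254 nm for 80 s, as was an untagged wild-type group, and a Pho92-HTP group without UV was not. Each group has 2 libraries, which the series text calls biological replicates, and crosslinked fission yeast carrying Luc7-HTP was added as a spike-in. The sample labels call the genotype an ime4 mutant and the deposited sheets name it ime4ko, and neither gives the allele.

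Ime4 is the methyltransferase that places N6-methyladenosine (m6A) on messenger RNA in budding yeast, where it acts with Mum2 and Slz1 during early meiosis. Pho92 carries a YTH domain, a fold that holds the methylated adenosine in an aromatic pocket, and is the YTH-domain reader of this yeast. Comparing the 2 genotypes asks how much of the RNA attached to Pho92 depends on the enzyme that writes the mark.

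The lists held 66282 and 41546 peaks in Pho92-HTP replicates 1 and 2, and 47313 and 60710 peaks in ime4 mutant replicates 1 and 2. Control lists were much shorter, with 2409 to 2877 peaks without UV and 2084 to 2606 peaks in untagged cells. Summit heights, read as numbers of reads, summed to 2.00e+06 and 942676 in the Pho92-HTP libraries, against 1.13e+06 and 1.22e+06 without IME4. Pho92-HTP replicate 2 was the thinnest of these 4, and its spike-in factor of 5.92 stood apart from the factors 1, 1.73 and 1.01 of the other libraries. A normalized score of 0.9, above which the authors counted peaks, was therefore reached by a 32-nt peak of 82.9 reads in that library, against 153 to 202 reads in the other three. The omitted contig held 27.2% to 44.3% of all summit height in the 4 libraries. Peak lists carry neither gene names nor sequence and no annotation of their SK1 contigs was used here, so the IME4 transcript could not be checked and regions are named by position. Because RNA abundance was not measured in these libraries, less Pho92 on each transcript and fewer copies of the transcript cannot be told apart in any value below.

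Pho92-HTP libraries listed more peaks than ime4 mutant libraries at every score threshold examined, and the ratio was largest at intermediate thresholds. Above 0.001, Pho92-HTP held 29547 and 27627 peaks and the ime4 mutant 20942 and 22693. Above 0.1 the numbers were 3120 and 3383 against 1100 and 936. Above 0.9 they were 1012 and 1055 against 288 and 282, or 1033.5 ± 30.4 and 285 ± 4.24 (SD, n = 2 each). Both Pho92-HTP libraries lay above both ime4 mutant libraries at each of these thresholds, and the ratio of means was 1.31, 3.19 and 3.63 in turn. Above 100, the difference was smaller, with 92 and 114 peaks in Pho92-HTP against 68 and 50 in the ime4 mutant, a ratio of 1.75 with library pairs ranging from 1.35 to 2.28. The control libraries held 2 to 27 peaks above 0.9 and 1 to 19 above 100, where 18 and 19 were those of the libraries without UV. No p-value is attached, because 2 against 2 libraries cannot give a two-sided exact p below 0.333. Without the spike-in factor the ratio above 0.9 was 2.80 and the genotypes stayed apart there, but they overlapped at 0.001, 0.01 and 100. Pho92-HTP replicate 2 then held 14492 peaks above 0.001 against 16615 and 22642 in the mutant, 4538 above 0.01 against 4093 and 5450, and 47 above 100 against 52 and 50.

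**Figure D1:**
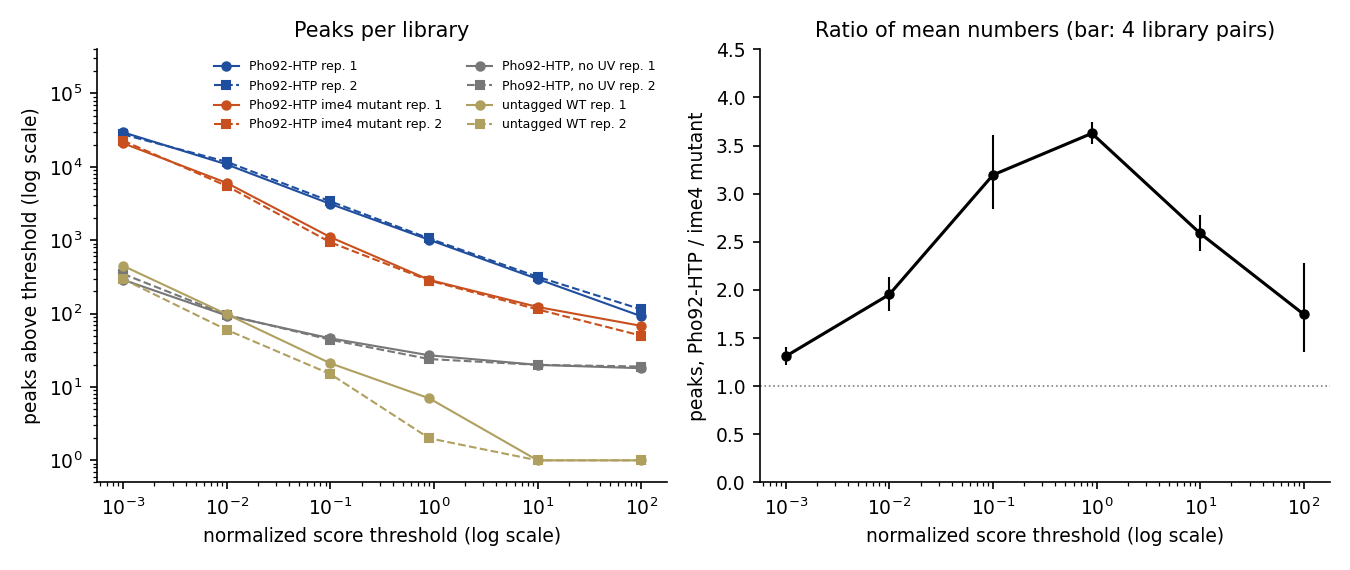
Number of peaks above each normalized score threshold (left, log axes) in each of the 8 libraries, and the ratio of mean numbers between Pho92-HTP and the ime4 mutant (right; the bar spans the 4 library pairs). The ratio climbs from 1.31 at a threshold of 0.001 to 3.63 at 0.9 and falls to 1.75 at 100.

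Most sites that were strong in both Pho92-HTP libraries had a far lower score in the ime4 mutant. Regions that passed 0.9 in 2 or more of the 4 libraries, called strong regions here, numbered 911. Of these, 585 were lower in the ime4 mutant, or 64.2% of those tested, 7 were higher, or 0.768%, 592 in all, or 65%, and 319 were not called (limma with a mean-variance trend, Benjamini-Hochberg adjusted p under 0.05). These shares are partly set by the filter: 607 of the 911 regions passed it only through both Pho92-HTP libraries, 10 only through both ime4 mutant libraries and 294 through both genotypes. Of the 585 lower regions, 555 passed only through Pho92-HTP. Of the 319 uncalled regions, 261 passed through both genotypes. In the 585 lower regions the median normalized score was 5.06 and 5.13 with IME4 and 0.00694 and 0.00651 in the mutant. In the 319 regions not called, the medians were 3.13 and 4.93 with IME4 and 3.79 and 3.04 in the mutant. Since the call split the regions on these same libraries, the medians describe the sets and add no support to the call. The lower regions had a median log2 score difference of -10.16 (quartiles -13.67 and -7.39) with a median SE of 1.07. Without Pho92-HTP replicate 1 or replicate 2, the same test called 70 and 77 regions lower, while leaving out either ime4 mutant library gave 585 to 610. Over the same filtered regions, 656, or 72.0%, were lower in both ime4 mutant libraries than in both Pho92-HTP libraries, and 44 regions, or 4.83%, were higher in both.

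The differences among strong regions had 1 broad group far below 0 and 1 narrow group around 0. The 911 strong regions had a median log2 difference in score of -7.53 (quartiles -11.90 and -0.49). A difference of -4 or beyond was found in 571 regions: 220 lay below -12, 212 between -12 and -8, and 139 between -8 and -4. Between -4 and -2 there were 57 regions and between -2 and -1 there were 27. Another 188 regions, or 20.6%, lay within 1 of no change, and 40 lay between 1 and 2. Beyond those, 22 regions had a difference above 4, of which 20 were not called. Of the 22, 20 had a peak listed in only 1 of the 2 Pho92-HTP libraries, so their size rests on a listed 0, and the other 2 had no peak in either Pho92-HTP library. Losses rest in part on a listed 0 as well. Over the 716 strong regions with a peak in all 4 libraries the median was -5.89, and over the 449 lower ones among them -8.88.

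**Figure D2:**
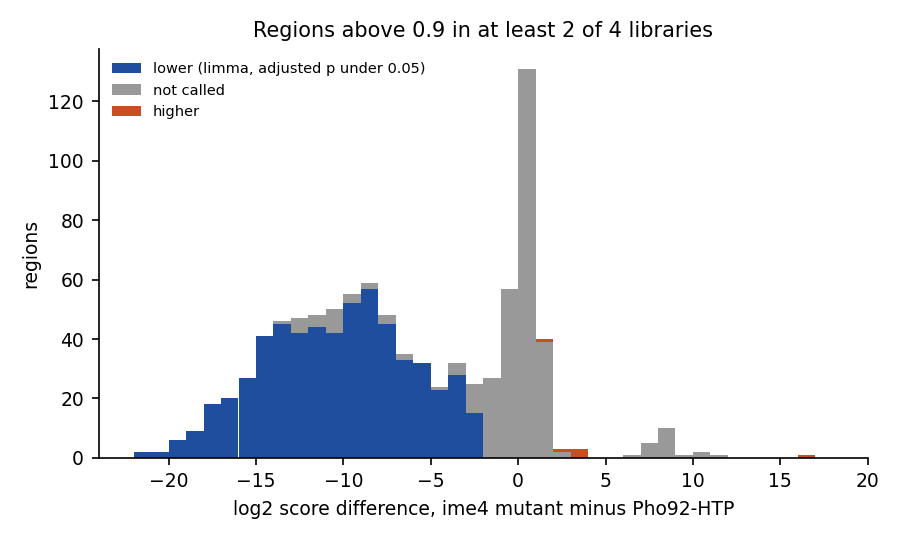
Distribution of the log2 normalized score difference (ime4 mutant minus Pho92-HTP) over the 911 strong regions, in bins 1 unit wide and stacked by call (limma, adjusted p under 0.05). A broad group of lower regions reaches beyond -12, a narrow group of uncalled regions sits around 0, and few regions lie above 2.

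Since the score grows with the square of peak height, each log2 unit of height adds about 2 log2 units of score. The loss was therefore also read as the summit height left in the mutant, over the 716 strong regions with a peak in all 4 libraries. The ime4 mutant retained a median of 13.0% of the Pho92-HTP height in these regions, with quartiles of 3.40% and 96.6%. Less than 1% was left in 47 regions, 1% to 10% in 286, 10% to 50% in 135, 50% to 200% in 242 and more than 200% in 6. Divided this way, fewer regions kept 10% to 50% of their height than kept 1% to 10% or 50% to 200%. The 449 lower regions with a peak in every library had a height 21.7-fold lower in the ime4 mutant at the median, or 4.61% left. Another 38 lower regions had no peak listed in either ime4 mutant library.

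Among strong regions with a peak in every library, the 5 lower ones with the smallest adjusted p show what a large difference looks like in the values. A trace of signal in the mutant and genotypes that do not overlap follow from how they were chosen. The region at NCSL01000066.1:24130-24163 on the plus strand scored 4973 and 4232 with IME4 and 0.330 and 0.344 in the ime4 mutant. Its log2 difference was -13.73 (SE 0.45, limma adjusted p = 0.00108). At NCSL01000022.1:141289-141328 on the plus strand, scores were 782 and 816 against 0.0509 and 0.0552. The summits there stood for 5950 and 2457 reads with IME4 and 37.0 and 48.2 reads in the ime4 mutant, so the mutant signal was above that of single reads while the scaled height was 123-fold lower. The log2 score difference was -13.88 (SE 0.46, limma adjusted p = 0.00108). The other regions of this set were NCSL01000005.1:207785-207841 and NCSL01000008.1:302328-302380 on the plus strand and NCSL01000039.1:77208-77265 on the minus strand. They scored 1404 and 1432 against 0.103 and 0.0573, 617 and 553 against 0.221 and 0.171, and 197 and 234 against 0.0570 and 0.0474. Their log2 differences were -14.17, -11.55 and -12.01, each with a limma adjusted p of 0.00108. Among strong regions their limma adjusted p reached at most 0.0346 over the alternatives, where, with 1 library of a genotype left out, the other genotype alone supplied the spread.

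Lower regions chosen at different strengths differed widely in the signal that remained, and none of those named reached the scores of the strongest uncalled site. They were named by their call over all strengths, and the SE and adjusted p given here are those among strong regions. The region at NCSL01000027.1:112222-112282 on the minus strand scored 47403 and 16797 with IME4 and 48.1 and 56.0 in the ime4 mutant (log2 difference -9.09, SE 0.86, limma adjusted p = 0.00264). Even after this loss it stayed above the score of 0.9 in both mutant libraries. By contrast, the region at NCSL01000001.1:130681-130716 on the plus strand went from 18244 and 8498 to 0.588 and 0.194, below that score in both (log2 difference -15.17, SE 0.83, limma adjusted p = 0.00113). At NCSL01000014.1:140117-140159 on the plus strand the scores were 3892 and 7177 against 119 and 73.2, a difference of -5.82 (SE 0.73, limma adjusted p = 0.00433). On the same contig, NCSL01000014.1:43076-43119 on the minus strand scored 180 and 246 against 4.97e-05 and 0.00041, which put the mutant near the level of single reads (log2 difference -20.18, SE 1.28, limma adjusted p = 0.00138). Another such site, NCSL01000008.1:326314-326366 on the minus strand, scored 34.1 and 24.7 against 4.38e-05 and 0.00112 (log2 difference -16.68, SE 1.76, limma adjusted p = 0.00316). In each of these 5 regions both mutant libraries lay below both Pho92-HTP libraries. This goes with the call, since all 484 regions called lower over all strengths lay so. What remained ranged from clear peaks to almost none. The 5 regions were picked 1 per class of mean score over all 4 libraries, which largely sets this range in advance. Over all strengths their limma adjusted p was 0.0279 to 0.0387, and each lost that call in 8 or 9 alternatives, among them leaving out any 1 library.

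**Figure D3:**
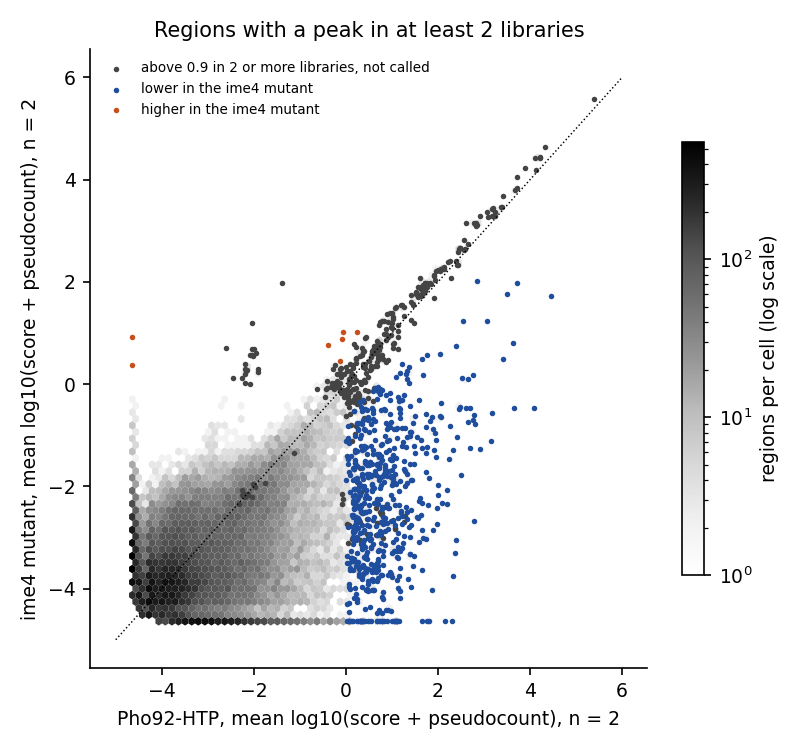
Mean normalized score of regions in Pho92-HTP (horizontal) and in the ime4 mutant (vertical), each averaged over 2 libraries on a log scale with the pseudocount. Grey cells show the density of the 55155 regions with a peak in at least 2 libraries. Points are the 911 strong regions, coloured by call. Of the 911 points, 585 called lower spread far below the diagonal, while the 319 uncalled ones mostly follow it.

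Sites that were not called included the strongest one of all. The region at NCSL01000010.1:76774-76805 on the plus strand scored 139280 and 423189 with IME4 and 540718 and 261954 in the ime4 mutant. The genotypes overlapped (log2 difference 0.63, SE 3.01, limma adjusted p = 0.885 among strong regions). In the fit over all strengths the SE was 0.72 (limma adjusted p = 0.779), so its size depends on the regions fitted together. The libraries without UV reached 294379 and 217856 at the same place, against 265 and 109 in untagged cells. At NCSL01000009.1:88258-88289 on the minus strand, scores of 3289 and 8350 stood against 9346 and 4878 in the mutant, and the libraries without UV scored 4558 and 4975. Weaker examples were NCSL01000002.1:322678-322735 on the plus strand, with 40.8 and 185 against 138 and 89.1, and NCSL01000041.1:6012-6047 on the minus strand, with 3.92 and 14.4 against 17.7 and 5.14. In the former the libraries without UV held 119 and 240. Within these 4 regions the 2 libraries of 1 genotype differed by 1.55-fold to 4.54-fold in score, and the genotypes overlapped. A difference within such a spread was not detectable here, which does not show that these sites kept their level.

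Control libraries marked the uncalled strong regions far more often than the lower ones. The libraries without UV had a peak in 220 and 214 of the 319 uncalled regions, or 69.0% and 67.1%, and the untagged libraries in 220 and 201, or 69.0% and 63.0%. In the 585 lower regions the corresponding shares were 30.9% and 25.5% without UV and 22.9% and 19.3% in untagged cells. No lower region scored above 0.9 in any control library, where the highest value was 0.109. Among the uncalled regions, 27 and 24 scored above 0.9 without UV and 7 and 2 in untagged cells. The part of this background in the uncalled regions was not tested. The deposited control sheets and normalization table disagree crosswise. The factors in the no-UV sheets, 0.428 and 0.746, stand in the table beside the untagged libraries. Those in the untagged sheets, 1.13 and 0.771, stand there beside the libraries without UV. For the second library without UV the table also records 2138 peaks, the number of the second untagged library, against 2462 in its own sheet. Control scores above are on the sheets' scale and would change by 0.380-fold to 2.63-fold with the table's factors, and whether the 2 control groups are named rightly was not tested. The listing of a peak does not depend on the factor.

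Few strong sites rose. The 7 strong regions called higher include 5 with a peak in all 4 libraries, whose log2 differences were 1.90 to 3.84. Of the 7, 4 passed the filter only through both ime4 mutant libraries and 3 through both genotypes. All 7 were higher in both mutant libraries, which goes with the call and adds no support to it. At NCSL01000060.1:489-543 on the minus strand, scores were 0.935 and 0.733 with IME4 and 7.23 and 7.99 in the ime4 mutant (log2 difference 3.20, SE 0.53, limma adjusted p = 0.00839). At NCSL01000017.1:77655-77690 on the minus strand they were 0.262 and 0.646 against 7.69 and 4.54 (3.84, SE 0.77, limma adjusted p = 0.0145). The genotypes did not overlap at either site. NCSL01000008.1:273726-273771 on the plus strand scored 1.47 and 2.13 against 14.1 and 7.46, NCSL01000058.1:443-506 on the plus strand 0.362 and 1.96 against 9.38 and 11.9, and NCSL01000003.1:288010-288054 on the minus strand 0.835 and 0.670 against 2.51 and 3.12. Both mutant libraries were the higher ones at all 3 sites, with log2 differences of 2.53, 3.65 and 1.90 and limma adjusted p of 0.0241, 0.0367 and 0.0487. All 5 calls were lost when either Pho92-HTP library was left out, with limma adjusted p of 0.0515 to 0.122. The count of higher regions also rests on the spike-in: it was 7 with the deposited factors, 46 without them and 50 with scaling to library totals.

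The change was next followed over all strengths of site, from single reads upward. Regions with a peak in at least 2 of the 4 libraries numbered 55155, and their median log2 difference was -0.62 (quartiles -3.16 and 1.49). Both ime4 mutant libraries lay below both Pho92-HTP libraries in 27.8% of them and above in 15.2%. The fit over all strengths called 484 regions lower, or 0.878%, and 12 higher, or 0.0218%, together 0.899% (limma, Benjamini-Hochberg adjusted p under 0.05). At an unadjusted p under 0.05 the numbers were 6716 lower and 1495 higher. Of the 585 strong regions called lower, 295 were also called lower here, and 123 of the 484 regions had no score above 0.9 in any library. All 12 higher regions had no peak in either Pho92-HTP library, and 165 of the 484 lower regions had none in either ime4 mutant library, so both kinds include regions that passed the filter through 1 genotype alone. This fit made no call when any 1 of the 4 libraries was left out, and its smallest adjusted p was 0.0279. Scaling to library totals moved the median over these regions from -0.62 to 0.25, so the direction of the typical weak site depends on the scaling.

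Grouped by the geometric mean score over all 4 libraries, the median log2 difference was 0.09 below 0.0001 (11801 regions), -0.52 for 0.0001 to 0.001 (28134 regions) and -1.59 for 0.001 to 0.01 (10674 regions). It was -1.94 for 0.01 to 0.1 (3398 regions), -1.96 for 0.1 to 1 (814 regions) and -1.41 for 1 to 10 (204 regions). For 10 to 100 (72 regions) and above 100 (58 regions) it was 0.42 and 0.60, with 15 and 5 regions still called lower. The sign at the top rests on single libraries, since without Pho92-HTP replicate 1 these medians were -0.50 and -0.32, and without ime4 mutant replicate 1 that for 10 to 100 was -0.054. Sites lost from the mutant are also scarce there by construction, because a low score in 2 libraries pulls the geometric mean down. With library-total scaling the medians for 0.01 to 0.1, 0.1 to 1 and 1 to 10 shrank to -0.60, -0.62 and -0.077. No region of these classes was called below a mean of 0.001.

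To see the change by strength without letting a library both set the class and enter the difference, regions were grouped by their score in 1 library and compared in the other three. Grouped by Pho92-HTP replicate 1, with the difference taken between the ime4 mutant mean and Pho92-HTP replicate 2, the median log2 difference was 0.00 in every class up to a score of 0.01. It was -2.04 for scores of 0.01 to 0.1 (7506 regions), -5.20 for 0.1 to 1 (2168 regions) and -8.04 for 1 to 10 (653 regions). It reached -8.60 for 10 to 100 (203 regions), was -7.43 for 100 to 1000 (69 regions) and returned to -0.36 above 1000 (22 regions). The median difference thus grew with the Pho92-HTP score over 4 factors of 10. Above 1000 it was mixed, with 7 of 22 regions below -6 and 9 below -1. Sites high only in the mutant cannot enter the strong classes of this grouping, and a weak site has less room to fall before no peak is listed. The part of these limits in the trend was not tested. Grouping by Pho92-HTP replicate 2 gave medians of -2.24, -4.72, -7.93 and -8.63 in the classes from 0.01 to 100. For 100 to 1000 the median was -1.26, with 35 of 79 regions below -6 and 32 above 1, and above 1000 it was 1.43. The top classes therefore depend on which replicate sets them. Above a geometric mean score of 100 over all 4 libraries, Pho92-HTP replicate 2 exceeded replicate 1 in 53 of 58 regions, and ime4 mutant replicate 2 was below replicate 1 in 50 of 58.

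The weakest classes say less, because single libraries miss many weak sites. Of regions scoring 0.0001 to 0.001 in Pho92-HTP replicate 1, 30.8% had a peak in Pho92-HTP replicate 2, and 35.3% and 44.6% in the ime4 mutant libraries. A score of 0.001 stood for 6.73 reads in a 32-nt peak of Pho92-HTP replicate 1 and 2.76 reads in replicate 2. Between 0.001 and 0.01, replicate 2 listed 53.6% of the regions of replicate 1, and 37.6% of regions were lower by more than 1 on the log2 scale while 33.0% were higher by as much. From 0.1 to 1, replicate 2 listed 94.3%, and 77.2% were lower against 8.99% higher. Grouped by replicate 2, the class from 0.001 to 0.01 had a median of -0.54, with 46.0% of regions lower by more than 1 and 23.4% higher. With the deposited factors, the medians thus lay below 0 from 0.01 to 1000 with either replicate. Between 0.001 and 0.01 they did so with replicate 2 only, and above 1000 the sign depended on the replicate.

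Regions were also grouped by their score in the mutant. Sites lost from the mutant cannot enter the strong classes of this grouping, so it describes only the sites that the mutant retains. Grouped by ime4 mutant replicate 1, with ime4 mutant replicate 2 compared to the Pho92-HTP mean, the median log2 difference was -0.28 for scores of 0.01 to 0.1 (4862 regions) and -0.61 for 0.1 to 1 (828 regions). It was -0.11 for 1 to 10 (153 regions), 0.28 for 10 to 100 (55 regions), -0.079 for 100 to 1000 (40 regions) and 0.19 above 1000 (28 regions). Grouped by ime4 mutant replicate 2, the medians were -0.48, -0.49, 0.42, 0.94, 0.99 and 1.26 for the same classes. Of the 153 regions scoring 1 to 10 in ime4 mutant replicate 1, 90.2% had a peak in each Pho92-HTP library.

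**Figure D4:**
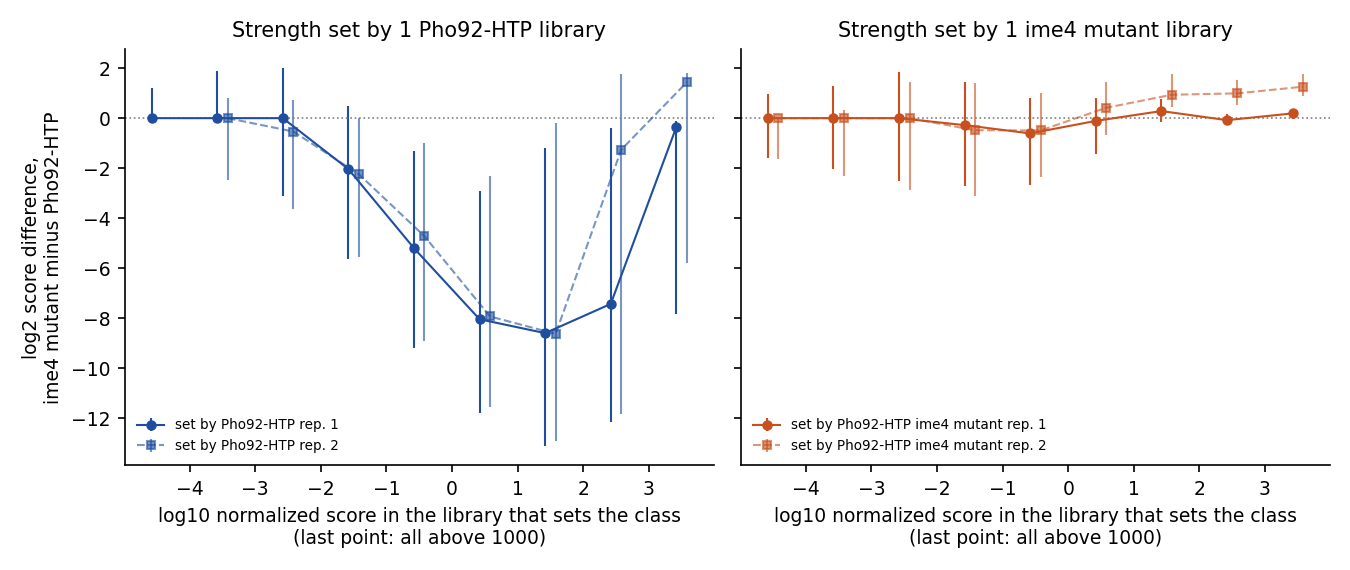
Median log2 normalized score difference (ime4 mutant minus Pho92-HTP) by class of score, with classes set by 1 Pho92-HTP library (left) or 1 ime4 mutant library (right) and the difference taken from the other libraries; bars span the quartiles. Set by Pho92-HTP replicate 1, the median goes from 0.00 below 0.01 to -8.60 at 10 to 100 and returns to -0.36 above 1000, while set by the mutant it stays between -0.61 and 1.26.

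Regions named from the weaker classes of the geometric mean follow. NCSL01000004.1:406958-407013 on the plus strand, called lower, scored 0.777 and 1.10 with IME4 and 4.39e-05 and 0.000136 in the ime4 mutant. Its log2 difference was -13.13 (limma adjusted p = 0.0387 over all strengths). Its mutant scores were near the level of 1 read, and the genotypes did not overlap, which goes with the call. The call was lost in 9 alternatives, among them leaving out any 1 library. Its low mutant scores alone place it in the class from 0.001 to 0.01 of the geometric mean. With IME4 its summits stood for 193 and 97.3 reads, so it does not show a site weak in Pho92-HTP. In the class from 0.1 to 1, NCSL01000004.1:360290-360322 on the plus strand was not called. It scored 0.400 and 2.70 against 0.982 and 0.649, so both mutant values fell between the Pho92-HTP values. In the class from 0.01 to 0.1, the uncalled NCSL01000003.1:247056-247160 on the plus strand scored 0.640 and 0.0131 against 0.120 and 0.0335. There the Pho92-HTP replicates alone differed 48.7-fold.

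The highest peaks of the mutant libraries lay farther apart in lower regions than those of Pho92-HTP. Among lower strong regions with a peak in all 4 libraries, the highest peaks of the 2 Pho92-HTP libraries lay a median of 1 nt apart, and 96.0% lay within 5 nt. The highest peaks of the 2 ime4 mutant libraries lay a median of 9 nt apart, with 38.1% within 5 nt, and those of the 2 genotypes a median of 9 nt apart, with 35.1% within 5 nt. In uncalled regions all these medians were 1 nt, and 84.4%, 81.3% and 79.2% lay within 5 nt in turn. Median widths of the highest peak differed little, at 32 to 33 nt in lower regions and 33 to 34 nt in uncalled regions. Lower regions were longer, with a median of 51 nt against 37 nt, and 50.8% of them against 21.9% exceeded 50 nt. A region spans the touching peaks of all 4 libraries, so peaks that lie apart lengthen it. The regions not called over all strengths also had a median of 50 nt. Summits in the lower regions stood for a median of 487 and 198 reads with IME4 and 13.3 and 18.0 in the ime4 mutant, so fewer reads set the position there. Scattered positions were usual for low peaks of either genotype: in the 14076 regions with all 4 peaks that were not called over all strengths, the highest peaks lay a median of 10 nt apart in Pho92-HTP and 13 nt in the ime4 mutant, with 35.3% and 26.5% within 5 nt. The part of low depth in the difference was not tested.

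**Figure D5:**
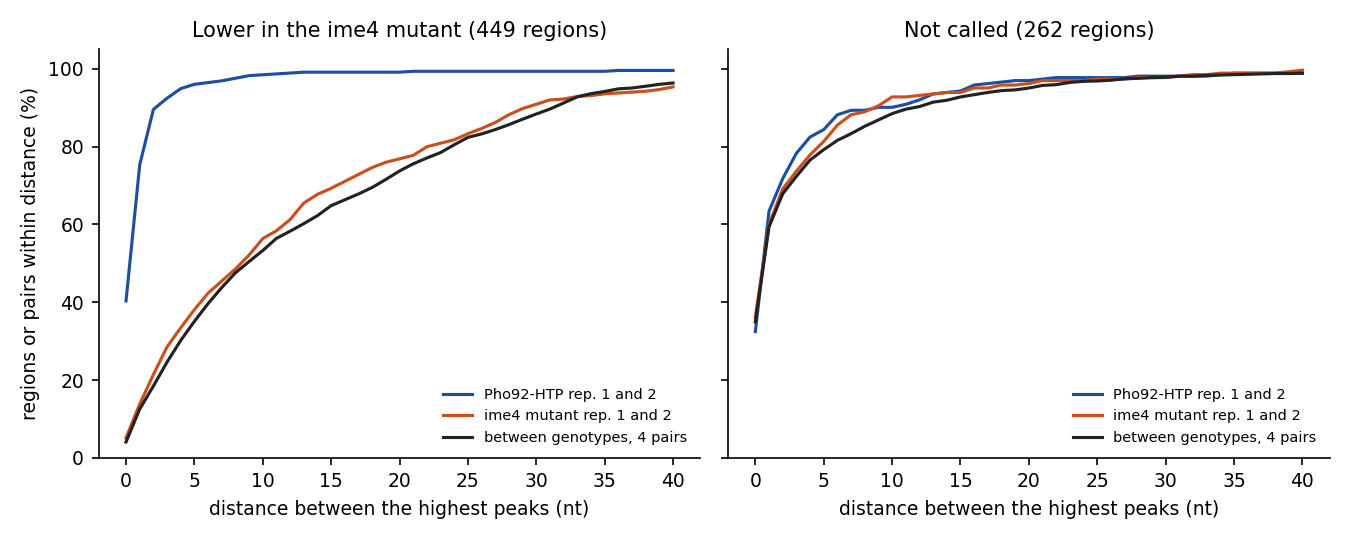
Cumulative share of strong regions by the distance in nt between the highest peaks of 2 libraries, for lower regions (left) and uncalled regions (right) with a peak in all 4 libraries. In lower regions 96.0% of Pho92-HTP replicate pairs and 38.1% of ime4 mutant replicate pairs lie within 5 nt, while in uncalled regions the shares are 84.4% and 81.3%.

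Lower regions were spread over the genome and lay on both strands. Strong regions were found on 77 contigs, and lower ones on 72. On the plus strand 294 of 446 strong regions were lower, or 65.9% (median log2 difference -7.57), and on the minus strand 291 of 465, or 62.6% (median -7.51). Among the 35 contigs with at least 10 strong regions, the share called lower ranged from 30% to 100% with a median of 65%, and the median difference was below 0 on 34 of them. The 5 contigs without any lower region held 10 strong regions in all.

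Neighbouring sites were not always called alike. Within 200 nt on the same strand there were 220 pairs of neighbouring strong regions, with a median gap of 70 nt. Both members were lower in 75 pairs, neither was called in 83, 58 pairs held 1 lower and 1 uncalled member, and 4 pairs held a higher one. The median difference between the log2 differences of both members was 5.67 in the mixed pairs, 3.96 where both were lower and 1.65 where neither was called. Because the calls that sorted the pairs rest on these same differences, these medians describe the sorting and add no support. The 3 pairs named next were chosen for such a contrast. At NCSL01000007.1, the region 310467-310502 on the plus strand scored 12.3 and 8.36 with IME4 and 14.0 and 17.2 in the ime4 mutant (log2 difference 0.62, SE 0.49, limma adjusted p = 0.361). The region 310540-310579, 38 nt further on, scored 1207 and 1072 against 24.4 and 11.5 (log2 difference -6.08, SE 0.62, limma adjusted p = 0.00297). The first site was slightly higher in both mutant libraries and the second was far lower, but with peaks within 50 nt merged both became 1 region, which was lower (-4.52, limma adjusted p = 0.00152). At NCSL01000023.1 on the plus strand, 62523-62591 scored 5.80 and 4.20 against 6.12 and 2.24, and 62626-62715 scored 58.1 and 6.44 against 0.289 and 0.0639 (log2 differences -0.42 and -7.15, limma adjusted p = 0.674 and 0.0158). At NCSL01000021.1 on the minus strand, 63932-63991 scored 2.78 and 2.06 against 0.412 and 0.589 (log2 difference -2.28, limma adjusted p = 0.0386), while 63999-64033 had a peak in only 1 library of each genotype, at 2.37 and 2.15. The lower calls of these 3 pairs were all lost when either Pho92-HTP library was left out, with limma adjusted p of 0.0613 to 0.118. Without ime4 mutant replicate 2 the regions 62626-62715 and 63932-63991 were also lost (limma adjusted p = 0.0510 and 0.0534), and without ime4 mutant replicate 1 the latter (limma adjusted p = 0.0946).

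Gains above 4 on the log2 scale, called or not, depended on how peaks were divided into regions. With peaks within 50 nt merged, 822 strong regions were formed, of which 575 were lower, 6 were higher and 171 lay within 1 of no change, with a median of -5.42. Of the 585 lower regions, 576 lay inside a merged region that was also called lower, and of the 7 higher regions, 5 lay inside one also called higher. None of these 7 lay in a merged region with a difference of 4 or more. Of the 22 regions with a difference above 4, 20 of them uncalled, 1 kept a difference of 4 or more after merging and 4 lay inside a region called lower. Among the 319 uncalled regions, 63 lay inside a merged region called lower.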

How the data were processed

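Per the labels' protocols, CRAC libraries with 75-nt reads were made from irradiated yeast mixed with spike-in cells. Per the submitters' processing notes, the tools included Bowtie2 2.4.1 and cutadapt, and ASM294v2 (fission yeast) was a genome build, with no roles stated. Nothing in the sources used here names the peak caller. The authors deposited 1 peak list per library, not pooled over replicates, on SK1 contigs and with strand, and coordinates are printed as listed. Per the file headers each peak carries a score (h2w), and the authors' normalized score is that score times a spike-in factor, a ratio of spike-in scores between Pho92-HTP replicate 1 and the library. Worked out from the values, the score equals the squared height over the peak width, with the read density smoothed by a Gaussian of SD 15 nt. Under that reading, the height came within 0.01 of a whole read number in 63.4% to 74.2% of 32-nt peaks per library. Total reads per library are not known, so no counting error is attached to a peak.

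Touching same-strand peaks of the 4 libraries were merged into regions (median length 34 nt), and normalized scores were summed per region. A listed 0 means that no peak was listed, which does not show absence. A count test had been planned only in case the files held counts. The files hold scores, so a mean-variance trend fit in limma 3.58.1 under R 4.3.3 was applied to log2(score + 2.30e-05), where the added pseudocount is percentile 5 of the normalized scores, on 2 against 2 libraries with no covariate. Differences are ime4 mutant minus Pho92-HTP on that scale and understate changes of weak sites. P-values were adjusted by the Benjamini-Hochberg method over all regions of a fit, with a threshold of 0.05. Fits covered regions above 0.9 in at least 2 libraries, and regions with a peak in at least 2 libraries. The procedure was run on simulated data with normal noise, where changes over all strengths were planted only among the regions of highest mean. That run does not show how weak sites with unlisted peaks are handled.

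Regions named are, first, in each class of a factor of 10 in geometric mean score and among regions with a peak in all 4 libraries, the one with the highest mean score that was called lower, called higher, or not called with an absolute log2 difference under 1. Second come the strong regions with a peak in all 4 libraries, the 5 lower ones of smallest adjusted p and up to 5 higher ones. Last come the 3 closest pairs of strong regions within 200 nt of which 1 was lower and 1 was not called. The comparison, the classes and the rules were chosen with earlier results of these data known. Alternatives covered the pseudocount, the scaling, the merging distance, the region value, the filter, the libraries and the library that sets a class. The genome and annotation of the SK1 contigs were not used here, so no gene names and no sequences are given. Merging and figures used Python 3.11.15 with numpy 2.4.6, pandas 2.3.3, matplotlib 3.10.9 and scipy 1.17.1.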

Additional observations from a re-analysis of the deposited data

How the results depend on the processing

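Among strong regions, the counts of 585 lower and 7 higher became 251 and 3 with a score above 5 required, and 2884 and 192 over all regions without a filter, where the test covers many more regions. Higher regions numbered 50 with library-total scaling, 37 with trimmed-mean scaling, 46 without the spike-in factor, 4 among regions with a peak in all 4 libraries and 4 without the mean-variance trend. Leaving out 1 library gave 70 to 610 lower and 1 to 5 higher strong regions, and 0 to 0 of either kind over all strengths.

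Over all strengths, the counts of 484 lower and 12 higher became 0 and 0 with library-total scaling, trimmed-mean scaling, no spike-in factor or no mean-variance trend. They were 1402 and 37 with the pseudocount at percentile 25, 1270 and 3 with peaks within 50 nt merged, 52 and 0 with summed summit height, 1728 and 24 with a peak in all 4 libraries, 2231 and 101 with a peak in at least 3, 8841 and 3805 in a fit of all 8 libraries, and 2884 and 192 with no filter. The median difference of -0.62 turned to 0.25 and 0.24 under library-total and trimmed-mean scaling, and ranged from -1.19 to 0.034 (above 0 without Pho92-HTP replicate 1) when 1 library was left out. With the replicate block the counts were 2447 and 119 over all strengths and 584 and 6 among strong regions. It ended the calls of NCSL01000008.1:273726-273771 (limma adjusted p = 0.0586), NCSL01000003.1:288010-288054 (0.158) and NCSL01000021.1:63932-63991 (0.124). The labels do not say that a number marks a shared batch, so same-numbered libraries were not taken as pairs. The correlation of their deviations, 0.211 over strong regions and -0.0038 over all strengths, does not settle this with 2 pairs.

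Class medians by geometric mean, from 0.0001 upward in factors of 10, were 0.29, -0.29, -0.60, -0.62, -0.077, 1.76 and 1.94 with library-total scaling, and 0.28, -0.33, -0.62, -0.65, -0.10, 1.73 and 1.92 with trimmed-mean scaling. From 0.001 to 10 they were -0.74, -1.05, -1.08 and -0.53 without the spike-in factor. Other settings moved them to -1.33, -2.10 and -2.12 (pseudocount at percentile 25, classes from 0.001 to 1), to -1.05 and -1.72 (all 4 peaks, 0.001 to 0.1), and to -1.32, -2.62 and -2.48 (peaks within 50 nt merged, classes 0.001 to 0.01, 0.1 to 1 and 1 to 10). Classes set by Pho92-HTP replicate 1 gave 0.00 (0.001 to 0.01), -5.20, -8.04, -8.60 (0.1 to 100) and -4.89 (above 100). Those set by Pho92-HTP replicate 2 gave -0.54, -2.24, -4.72, -7.93 and -8.63 (0.001 to 100), and those set by ime4 mutant replicate 1 gave 0.00, -0.28, -0.61 and -0.11 (0.001 to 10). By the arithmetic mean, an alternative chosen after seeing the data, they were -0.94, -2.50, -5.51, -8.001 and -7.79 (0.001 to 100). Leaving out 1 library gave ranges of -0.60 to 1.23, -1.44 to 0.46, -2.002 to -1.37, -2.16 to -1.89, -2.02 to -1.98, -1.81 to -1.38, -0.50 to 1.16 and -0.32 to 1.52 from the weakest class to the strongest.

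Ratios of peak numbers above 0.001, 0.01, 0.1, 0.9 and 10 were 1.12, 1.60, 2.61, 2.80 and 1.97 without the spike-in factor. With contig NCSL01000092.1 kept they were 3.23 above 0.9 and 2.10 above 10. Of 34 results on named regions, 15 lost their call in at least 1 alternative. The region NCSL01000007.1:310467-310502 turned from 0.62 to -4.52 when it was merged with its lower neighbour. The cause of the other changes was not tested. Depth limits what can be said below a score of 0.001, and between 0.001 and 0.01 the result depends on the library that sets the class, and 2 libraries per group limit the rest.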
